A study of Mus musculus with 4 samples.

Results

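The nutrient transporters described here are 10 genes that T cells are known to use or raise when they begin to grow: Slc2a1, Slc2a3, Slc7a5, Slc3a2, Slc1a5, Slc38a2, Slc7a1, Slc6a9, Slc19a2 and Tfrc. They were chosen by name from the 32285 genes of the deposited count files, and all 10 symbols matched 1 gene each. Every one was counted in each of the 4 libraries and passed the filter on low counts in every main comparison below. The genes were followed across resting, activated and Foxp3-positive cells, across activated cells with little or much Myc, and between the genotype labels.

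A resting T cell takes up few nutrients and lives mainly by oxidation, whereas a stimulated cell has to build protein, nucleotides and membrane before it divides. Signals from the antigen receptor and CD28 raise glucose carriers, exchangers and carriers of amino acids, and the receptor that brings in transferrin-bound iron. Myc, a transcription factor that directs this growth programme, and the kinase complex mTORC1, which senses amino acids, are the best known controllers of these genes in T cells.

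The cells were CD4 T cells sorted from the spleens of C57BL6/J mice for CD3 and CD4 and cultured for 6 hours with beads bearing antibodies to CD3 and CD28. All 4 libraries, prepared with 3′ single-cell chemistry, were stimulated in this way: for each sex there was 1 library labelled Irf5-/- (a deletion of interferon regulatory factor 5) and 1 labelled wild type. No unstimulated library was analysed here, so resting cells are cells of the stimulated cultures that carried few activation transcripts. Age, the number of mice behind a library and the design of the deleted allele were not given in the sources used here, and p-values therefore measure the spread between these 4 libraries, which may be technical.

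The libraries held between 28841161 and 55850754 UMIs (unique molecular identifiers, each standing for 1 captured transcript). Of 19100 cells kept, 85 carried markers of other lineages and were left out, which left 19015 T cells, between 1795 and 6522 per library. Median UMIs per kept cell were 5104.5 and 6741 in the female and male libraries labelled knockout and 8416 and 9661 in those labelled wild type. Droplets with fewer than 200 UMIs held 36.2% of the UMIs of the female library labelled wild type and 8.62% to 14.7% in the other libraries. Any pair of libraries shared between 2 and 14 cell barcodes, at most 0.551% of the cells of a library. Irf5 went against the labels: the libraries labelled knockout held 8.50 ± 0.351 CPM (UMI counts relative to a TMM-adjusted library size, SD, n = 2), and the libraries labelled wild type held 1.00 ± 0.0693 CPM (log2 difference 3.07, edgeR adjusted p = 3.72e-16). The files do not show which part of Irf5 these 3′ counts represent, and whether the labels were exchanged was not tested. Genotype is therefore given below as the label only, and an exchange would turn the direction of every genotype difference.

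Each cell was thinned to 2000 UMIs and sorted by the summed UMIs of 9 early activation genes, none of which is a transporter. Cells with 0 or 1 such UMI were called resting (6024 cells), those with 2 or 3 intermediate (2726), and those with 4 or more activated (9404). A cell with at least 1 Foxp3 UMI before thinning was set apart as a Foxp3 cell (861), Foxp3 being the defining factor of regulatory T cells. This class therefore depends on the depth of a cell, and the part of free RNA in it was not tested. At least 2 Foxp3 UMIs were held by 180 and 244 cells of the female and male libraries labelled knockout. In those labelled wild type 24 and 114 cells held as many. These classes are ranges of a score and not cell types: between 330 and 1221 cells per library lay at 1 or 2 activation UMIs and between 204 and 773 at 3 or 4. Genes of quiescence summed to between 3.36 and 4.56 UMIs per resting cell and between 0.339 and 0.451 per activated cell, and all 6 of them were lower in activated cells.

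The promoters of 3 transporters with large rises in activated cells are shown, since these genes moved together. The RefSeq table of GRCm38.p6 held windows for 7 of the 10 genes, 11 windows in all. Each window runs from 250 bases before to 50 after a start site, and only the bases before the start are printed, 5′ to 3′ on the strand of the gene. Slc7a1 is at chr5:148399905-148400154 (minus strand), Slc3a2 at chr19:8713898-8714147 (minus strand) and Tfrc at chr16:32608646-32608895 (plus strand). The Slc3a2 window belongs to a start site inside the annotated gene and not to its 5′ end, and Slc7a1 and Tfrc each have a second window that is not shown. Capitals mark the single motif match found.
Slc7a1: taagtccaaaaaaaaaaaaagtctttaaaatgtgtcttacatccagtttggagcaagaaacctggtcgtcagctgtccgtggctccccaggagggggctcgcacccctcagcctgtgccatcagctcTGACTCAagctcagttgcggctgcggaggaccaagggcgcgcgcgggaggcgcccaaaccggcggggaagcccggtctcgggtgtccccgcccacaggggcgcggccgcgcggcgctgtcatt
Slc3a2: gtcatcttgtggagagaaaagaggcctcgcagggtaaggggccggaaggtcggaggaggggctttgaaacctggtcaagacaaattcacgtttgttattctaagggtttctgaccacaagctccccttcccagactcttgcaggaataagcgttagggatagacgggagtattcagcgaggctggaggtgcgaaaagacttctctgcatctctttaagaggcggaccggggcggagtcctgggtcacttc
Tfrc: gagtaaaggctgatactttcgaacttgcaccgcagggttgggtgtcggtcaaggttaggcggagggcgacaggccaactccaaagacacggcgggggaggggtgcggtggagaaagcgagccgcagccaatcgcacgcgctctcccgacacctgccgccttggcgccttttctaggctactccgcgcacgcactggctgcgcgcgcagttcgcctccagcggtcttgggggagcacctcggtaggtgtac
A set of 3 motifs was searched on both strands of the whole windows, and the motifs do not contain one another. The E-box CACGTG, the motif best known for Myc, was in 0 of the 11 windows and in 7.15% of 32851 mouse promoters of the same length. The amino acid response element, searched as TGATGNAAN, was in 0 of 11 windows and in 3.95% of promoters. The AP-1 motif TGANTCA was in 1 window, that of Slc7a1, and in 7.81% of promoters. The match is a description of letters and says nothing of binding, and the absence of a match covers these windows only.

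The question of the main comparison was how far each transporter differed between activated and resting cells of the same library. In activated cells 8 of the 10 genes were higher and 0 were lower, where 78.7% of the 10911 genes tested were called, 38.1% as higher and 40.6% as lower. The median log2 difference was 1.16 over the transporters and -0.04 over all genes. For each of the 8, all 4 activated values lay above all 4 resting values, as they did for 33.8% of all genes tested, while the thiamine carrier Slc19a2 and the glucose carrier Slc2a3 overlapped between the classes. At an unadjusted p under 0.05 the counts were also 8 higher and 0 lower, and DESeq2 gave the same 2 counts. Values below are CPM with TMM scaling, in the order female then male library labelled knockout, female then male library labelled wild type.

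**Figure D1:**
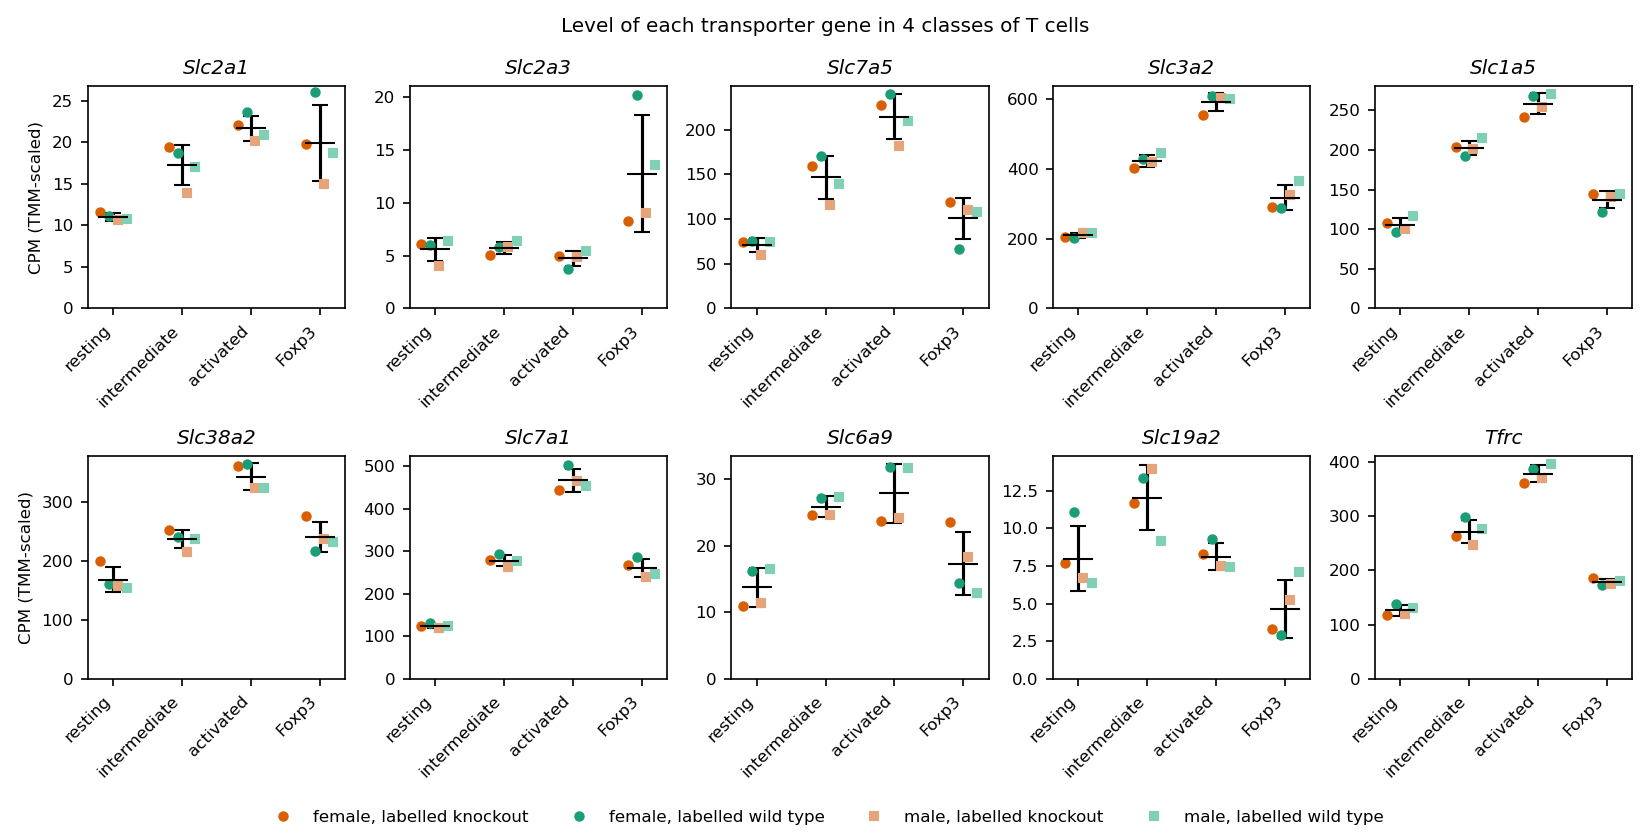
Level of each of the 10 transporters (CPM, vertical axis) in resting, intermediate, activated and Foxp3 cells. Each point is 1 library (n = 4), colours give the library, and the lines mark the mean and 1 SD. For 8 genes all activated points lie above all resting points, which is not so for Slc2a3 and Slc19a2.

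Among the amino acid carriers, Slc7a1 (chromosome 5, 148327410 to 148399904, minus strand), a carrier of arginine and lysine, had the largest difference of the 10. It stood at 124, 119, 131 and 125 CPM in resting cells and at 443, 465, 503 and 453 CPM in activated cells. The log2 difference was 1.90 (SE 0.035, edgeR adjusted p = 4.34e-22), a 3.73-fold rise, and 0.834% of all genes tested had a larger one. Per cell, without scaling, activated cells held 3.86 to 4.46 times as many Slc7a1 UMIs as resting cells of the same library.

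Slc7a5 (chromosome 8, 121881150 to 121907694, minus strand) and Slc3a2 (chromosome 19, 8706882 to 8723369, minus strand) encode the light and heavy chains of LAT1-CD98, which exchanges large neutral amino acids such as leucine for glutamine. Slc7a5 stood at 74.5, 59.9, 75.0 and 74.4 CPM in resting cells and at 228, 182, 240.0 and 209 CPM in activated cells (log2 difference 1.59, SE 0.062, adjusted p = 1.21e-16). Slc3a2 stood at 205, 217, 202 and 215 CPM in resting cells and at 555, 603, 609.9 and 603 CPM in activated cells (1.49, SE 0.036, adjusted p = 2.33e-20). The Slc7a5 UMIs per Slc3a2 UMI ranged from 0.277 to 0.371 over the resting classes and from 0.302 to 0.411 over the activated classes, and the male library labelled knockout was lowest in both.

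Slc1a5 (chromosome 7, 16781340 to 16798274, plus strand), the glutamine carrier ASCT2, stood at 108, 101, 96.1 and 117 CPM in resting cells and at 241, 254, 267 and 271 CPM in activated cells. The log2 difference was 1.29 (SE 0.044, adjusted p = 8.53e-18). Slc38a2 (chromosome 15, 96687392 to 96699730, minus strand), a sodium-coupled carrier of small neutral amino acids that cells are known to raise when amino acids are short, stood at 199.8, 158, 162 and 154 CPM in resting cells and at 361, 323, 365 and 323 CPM in activated cells. Its difference was 1.03 (SE 0.044, adjusted p = 5.63e-16). Slc6a9 (chromosome 4, 117834506 to 117875198, plus strand), the glycine carrier GlyT1, stood at 10.9, 11.4, 16.2 and 16.5 CPM in resting cells and at 23.8, 24.3, 31.9 and 31.6 CPM in activated cells (1.03, SE 0.092, adjusted p = 4.75e-10). All 3 carriers were separated between the classes without overlap. Slc6a9 overlaps Gm17114, Ccdc24 and B4galt2 on the opposite strand, and whether the counting used strand was not given in the sources used here.

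Tfrc (chromosome 16, 32608920 to 32632794, plus strand), the transferrin receptor CD71 through which T cells take up iron, stood at 117, 119, 138 and 131 CPM in resting cells and at 360.3, 371, 387 and 396 CPM in activated cells. The log2 difference was 1.59 (SE 0.038, adjusted p = 2.49e-20), a 3.01-fold rise. Cells with transcripts of red-cell precursors that were left among the T cells held 0.0481% to 0.252% of the T cells' Tfrc UMIs. The 7 to 38 cells per library removed for markers of other lineages held 0.342 to 1.10 Tfrc UMIs each in 3 libraries and 6.79 each in the female library labelled wild type.

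The glucose carriers differed from each other. Slc2a1 (chromosome 4, 119108711 to 119137983, plus strand), the carrier GLUT1, stood at 11.6, 10.6, 11.1 and 10.7 CPM in resting cells and at 22.1, 20.2, 23.6 and 20.9 CPM in activated cells (log2 difference 0.96, SE 0.079, adjusted p = 1.20e-10). Slc2a3 (chromosome 6, 122727809 to 122801640, minus strand), the high-affinity carrier GLUT3, stood at 6.06, 3.98, 5.96 and 6.39 CPM in resting cells and at 4.91, 4.87, 3.74 and 5.42 CPM in activated cells. It was higher in activated cells in 1 of 4 libraries, and its difference of -0.17 (SE 0.16, adjusted p = 0.325) has a 95% interval from -0.47 to 0.14. Slc2a1 overlaps Gm12867 and Gm12868 on the opposite strand.

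Slc19a2 (chromosome 1, 164249046 to 164265385, plus strand), a high-affinity carrier of thiamine, stood at 7.71, 6.66, 11.1 and 6.39 CPM in resting cells and at 8.27, 7.47, 9.29 and 7.43 CPM in activated cells. The difference of 0.08 (SE 0.13, adjusted p = 0.567) has a 95% interval from -0.18 to 0.35. The class in between stood higher, at 11.7, 13.9, 13.4 and 9.14 CPM. Among the alternatives run, Slc19a2 was the only one of the 10 genes whose call changed, with a difference of 0.38 that passed the threshold when activated cells had at least 6 and resting cells 0 activation UMIs.

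Intermediate cells differed from resting cells in most of the transporters. Against resting cells 9 of the 10 transporters were higher and 0 lower in them, beside 64.2% of all genes called (32.9% higher, 31.2% lower), and Slc2a3 was the exception (0.07, SE 0.18, edgeR adjusted p = 0.768). The largest of these differences were 1.16 for Slc7a1, 1.10 for Tfrc and 1.03 for Slc7a5. Slc19a2 was higher by 0.66 (SE 0.15, adjusted p = 4.41e-04). From intermediate to activated cells 7 transporters rose further, beside 43.9% of all genes called and 21.9% higher, and 1 fell, beside 22% lower. The one that fell was Slc19a2 (-0.58, SE 0.14, adjusted p = 0.00157), while Slc6a9 (0.08, adjusted p = 0.478) and Slc2a3 (-0.24, adjusted p = 0.289) did not pass. These steps were added to the planned comparison after its values were seen.

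**Figure D2:**
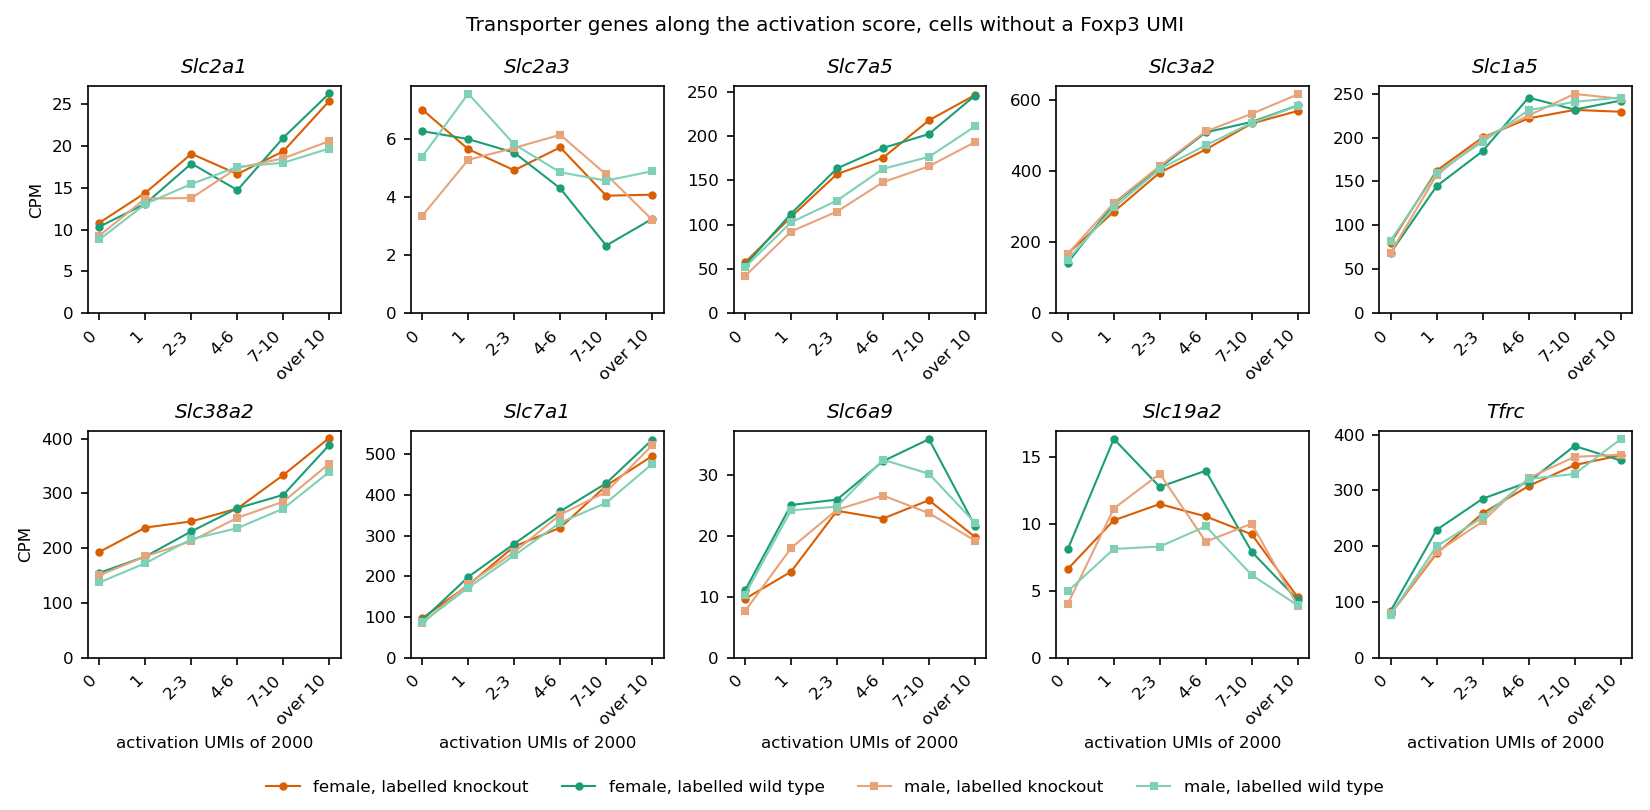
Level of each transporter (CPM, vertical axis) against the activation UMIs per cell of 2000 (6 bins, horizontal axis). Lines join the bins of each of the 4 libraries. Slc7a1 and Slc38a2 climb to the last bin in every library, whereas Slc6a9 and Slc19a2 are lower in the last bin than in the 2 bins before it.

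Finer bins of activation UMIs separated 3 shapes among the genes, given here as means over the 4 libraries, without TMM factors and without Foxp3 cells. Slc7a1 climbed through every bin, from 90.2 CPM at 0 activation UMIs to 508 CPM at over 10, and Slc38a2 from 159 to 371 CPM. Slc2a1, Slc7a5 and Slc3a2 also had their highest value in the last bin in 4 of 4 libraries, and Tfrc in 3 of 4. Slc1a5 levelled off, with 231 CPM at 4 to 6 UMIs, 238 at 7 to 10 and 240.2 at over 10. Slc6a9 stood at 28.6 ± 4.68 CPM (SD, n = 4) at 4 to 6 UMIs and at 28.9 ± 5.37 CPM at 7 to 10, with 2 libraries highest in each of these bins, and at 20.7 ± 1.41 CPM in the last bin. Slc19a2 was highest in the middle bins, with 5.94 ± 1.81 CPM at 0 UMIs, 11.6 ± 2.37 CPM at 2 or 3 and 4.17 ± 0.314 CPM at over 10.

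Counted per cell after thinning, resting cells had 0.99 to 1.15 of the 10 transporters detected on average and activated cells 2.79 to 2.96. No transporter was detected in 37.3% to 43.2% of resting cells and in 2.88% to 4.32% of activated cells. Foxp3 cells lay between, with 1.55 to 1.94 detected. Activated cells also had more UMIs in all, with medians of 5455 to 10382 against 3797 to 6894 in resting cells, which the thinning sets equal. Free RNA, read from droplets with fewer than 200 UMIs, held Slc7a1 at 136 to 170 CPM, Tfrc at 146 to 190 CPM and Slc3a2 at 247 to 325 CPM, between their resting and activated levels in each library. The same held for Slc7a5, Slc1a5, Slc2a1 and Slc6a9, while Slc38a2 in free RNA (151 to 181 CPM) was below its resting level in 2 of 4 libraries. The part of free RNA in the resting level was not tested.

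**Figure D3:**
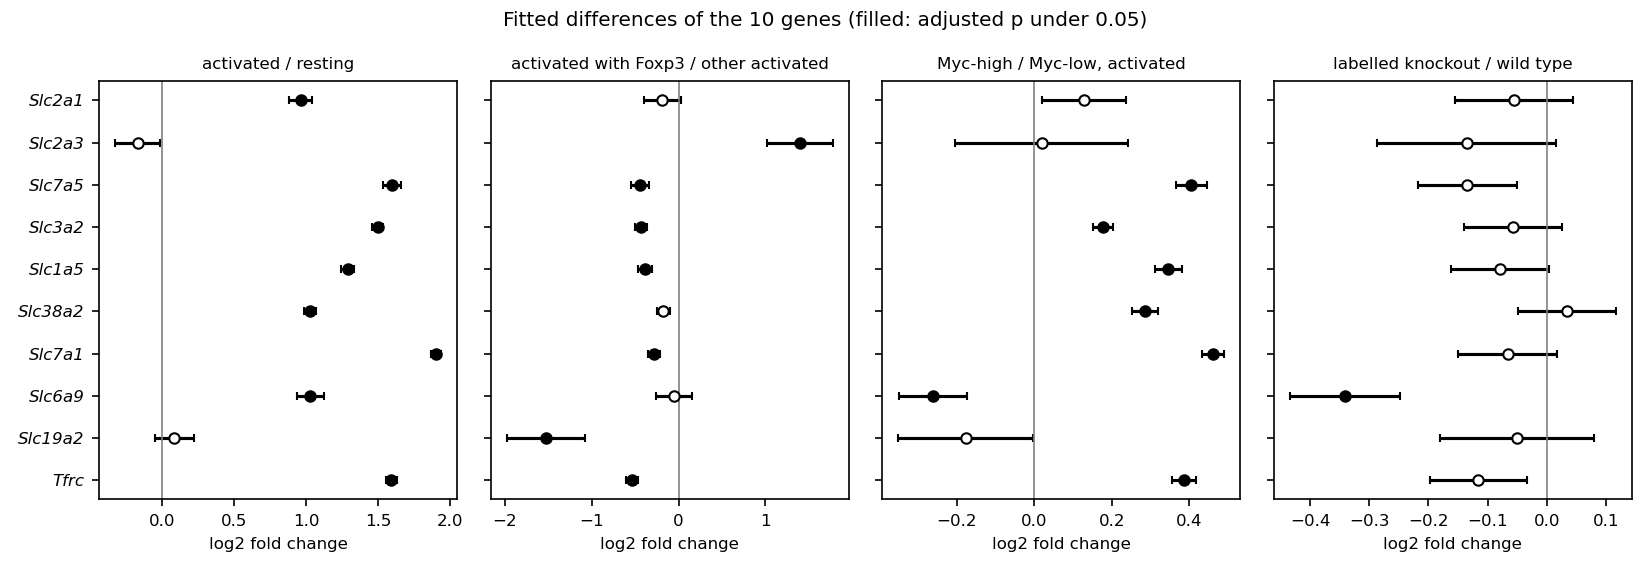
Log2 difference of each transporter (horizontal axis) with its standard error (bars) in 4 comparisons, each with its own axis range, filled where the adjusted p was under 0.05. The activated-to-resting differences of 8 genes lie between 0.96 and 1.90, and the genotype differences of all 10 lie between -0.34 and 0.03.

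Genes of the same pathways were read from 4 lists chosen with earlier results of these data known, each to be set against 38.1% of all genes higher and 40.6% lower. Of 36 other nutrient transporters 32 were tested, and 17 were higher, 10 lower and 5 not called in activated cells, with a median of 0.25, so that nearly as large a share was called over all genes (78.7%). The highest were Slc7a11 (1.81), which imports cystine, Slc16a1 (1.42), which carries lactate, and Slc7a6 (1.40), a partner of Slc3a2 that carries arginine. The lowest were Slc43a2 (-2.26), which carries branched-chain amino acids, Slc46a3 (-2.24) and Slc36a1 (-1.75), both carriers of the lysosome. All of the 15 amino acid response genes tested were called, 14 higher and 1 lower, with a median of 1.20. Cebpb (1.86), Sesn2 (1.76) and Trib3 (1.64), which stress kinases raise when amino acids run short, led the list, and Nupr1 (-1.75) was the lower one. Nupr1 rested on 43, 27, 6 and 23 UMIs over all T cells in the order given, and it was lower in 3 of 4 libraries, with a difference of 0.48 in the female library labelled wild type.

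Of 19 regulators of uptake 6 were higher, 9 lower and 4 not called (median -0.36), a share called that was close to the 78.7% of all genes. Rheb (1.40), which activates mTORC1, Hif1a (0.76), which drives glucose carriers, and Rraga (0.51), which brings mTORC1 to the lysosome, were highest. Nedd4 (-2.91), a ubiquitin ligase, Txnip (-2.88), which removes glucose carriers from the surface, and Rragd (-2.42) were lowest. Of 9 iron genes 7 were tested and 3 were higher, 2 lower and 2 not called. The higher ones were Hmox1 (1.06), which breaks down haem, Ncoa4 (0.40), which delivers ferritin for breakdown, and Ireb2 (0.37), which stabilises Tfrc mRNA in low iron. The ferritin chains Ftl1 (-0.61) and Fth1 (-0.56) were the lower ones.

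**Figure D4:**
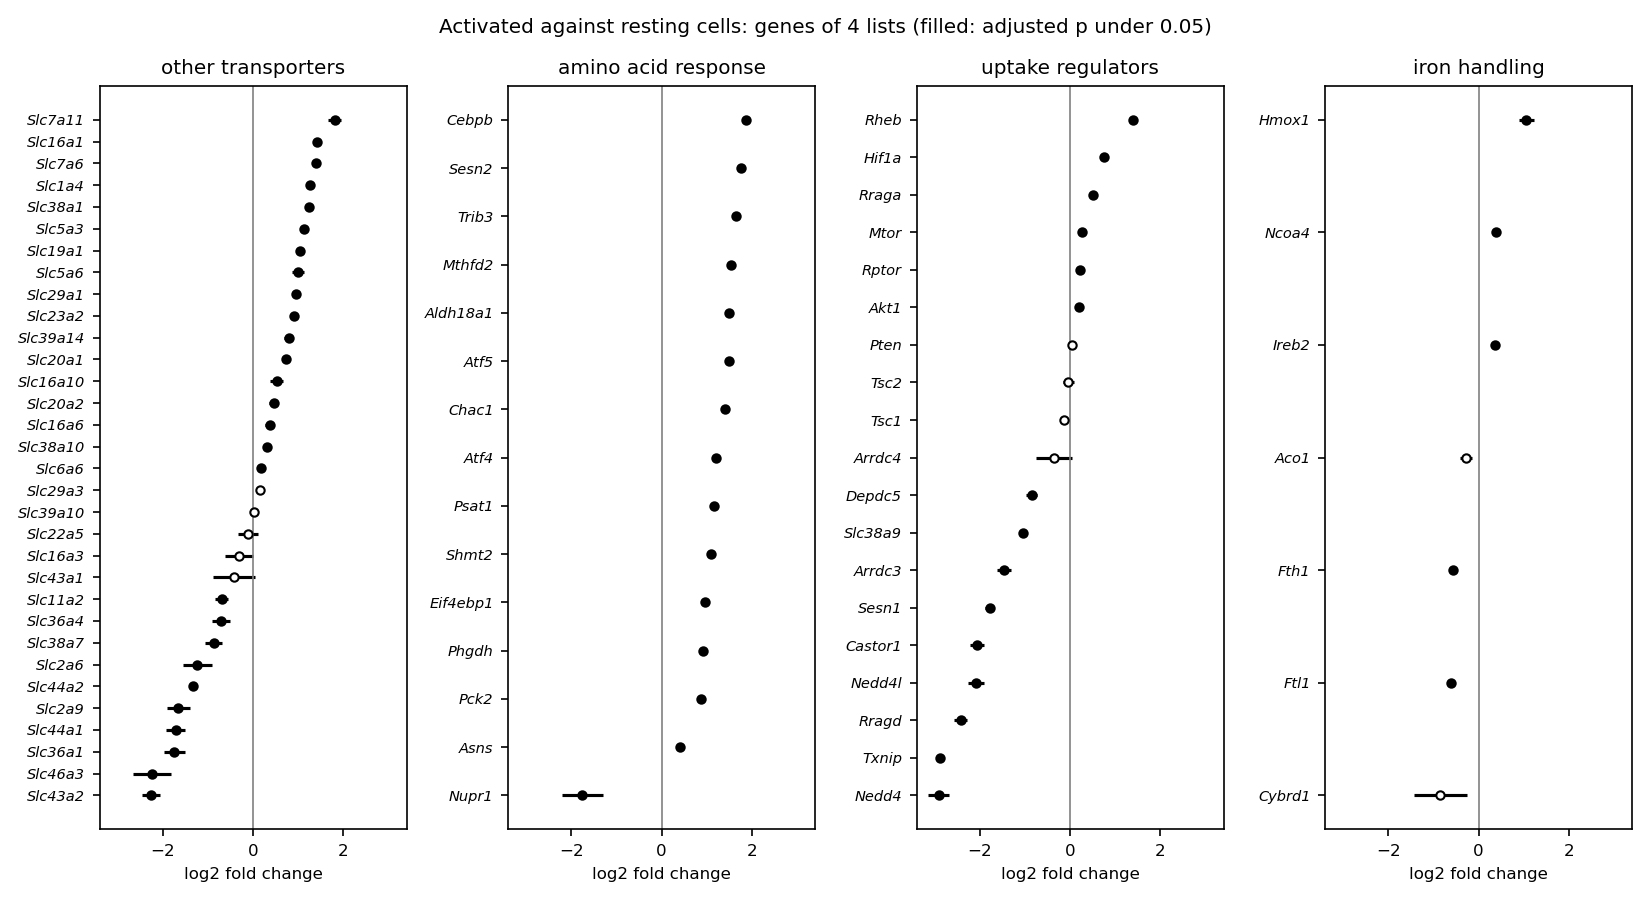
Log2 difference between activated and resting cells (horizontal axis) of each tested gene in the 4 lists. Each point is 1 gene with its standard error (bar), filled where the adjusted p was under 0.05. The amino acid response genes lie above 0 except Nupr1, and the regulators of uptake lie on both sides.

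The patterns over the bins were also set beside all other genes tested, with 24 points (6 bins in 4 libraries, centred per library), and are given as a description because bins of 1 library share its cells and depth. The genes most like Slc7a5 were Nop56 (r = 0.997), which builds ribosomal RNA, and Eif3a (0.997), a translation initiation factor. Slc3a2 was most like Eif2s2 (0.999) and Mthfd2 (0.998), Slc1a5 most like Dkc1 (0.995) and Rpf2 (0.994), and Slc7a1 most like Timm9 (0.997) and Snhg1 (0.997). Tfrc was most like Rrp1b (0.997) and Nars (0.997), and Slc38a2 most like Orai1 (0.993) and Tnf (0.993). For Slc2a1 they were Hivep1 (0.973) and 5430416N02Rik (0.971), and for Slc6a9 Hnrnpr (0.980) and Atp5b (0.979). The likeness was weaker for Slc19a2, with Ptprcap (0.947) and Fkbp4 (0.944), and for Slc2a3, with Cxcr6 (0.844) and Dcun1d4 (0.821). Among the transporters, Slc7a5 and Slc7a1 were alike at r = 0.995 whereas Slc2a3 ran opposite to most, down to -0.579 with Slc38a2, and Slc7a5 and Slc19a2 stood at -0.0047.

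Foxp3 cells were compared with other cells at the same activation cut, in 124, 153, 20 and 78 activated Foxp3 cells in the order given. Of the 10 transporters 6 were lower in them, beside 24.8% of 9260 genes called and 11.5% lower, and 1 was higher, beside 13.2% higher. The median was -0.33 over the transporters and 0.00 over all genes. As a check of the group, Ctla4, Ikzf2, Il2ra, Gpr83 and Ikzf4, the regulatory T cell genes of the list other than Foxp3 itself, were higher by 1.53 to 5.07. Activated Foxp3 cells held 9.73, 12.0, 12.3 and 13.3 activation UMIs of 2000 on average and other activated cells 13.4, 13.4, 14.4 and 13.1, and the part of this gap in the differences was not tested.

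Tfrc had the lowest adjusted p, at 249, 245, 260.3 and 265 CPM in activated Foxp3 cells and at 353, 363, 376 and 385 CPM in other activated cells (log2 difference -0.54, edgeR adjusted p = 2.35e-06). Slc3a2 stood at 371, 439.8, 409.8 and 484 CPM against 543, 591, 593 and 586 CPM (-0.43, adjusted p = 1.41e-05), and Slc7a5 at 157, 159.7, 99.7 and 147 CPM against 223, 178, 233 and 204 CPM (-0.44, adjusted p = 0.00152). None of these overlapped between the groups, though the Slc7a5 difference did not pass with thinned counts (-0.19). Slc1a5 was lower by 0.39 (adjusted p = 5.51e-04) and Slc7a1 by 0.28 (adjusted p = 0.00239) on the log2 scale, the latter not past the threshold when counts were scaled to library totals (-0.12, adjusted p = 0.208) or when the male library labelled knockout was left out (-0.25). Slc38a2 (-0.17, adjusted p = 0.0762; past the threshold at -0.25 with no filter on low counts, at -0.24 with at least 2 Foxp3 UMIs per cell and at -0.19 without the female library labelled wild type), Slc2a1 (-0.19, adjusted p = 0.574) and Slc6a9 (-0.05, adjusted p = 0.895) did not pass.

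The rarer carriers rested on few UMIs in these cells. Slc2a3 was higher in activated Foxp3 cells by 1.40 (SE 0.38, adjusted p = 0.00684), from 6, 10, 7 and 13 UMIs. Its level was 7.07, 8.36, 38.8 and 16.5 CPM against 4.81, 4.77, 3.63 and 5.27 CPM in other activated cells, and the 7 UMIs of the female library labelled wild type came from 4 of its 20 cells. Without that library the difference was 1.03 (adjusted p = 0.0338), it did not pass with stricter class cuts (1.25, adjusted p = 0.0703), and with thinned counts Slc2a3 and Slc19a2 were too low to be tested. Slc19a2 was lower by 1.53 (adjusted p = 0.0131), from 2, 4, 0 and 2 UMIs, and did not pass with DESeq2, with stricter cuts, with at least 2 Foxp3 UMIs per cell or without either library labelled knockout.

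Over all activation levels, Foxp3 cells lay between resting and activated cells for most transporters. This class mixes activation levels, with 4.73, 5.67, 6.48 and 6.69 activation UMIs of 2000 on average. Resting cells held 0.342 to 0.364, and the part of this mix in the differences was not tested. Against resting cells 9 were higher and 0 lower in them, beside 35.4% of genes called, 20.8% higher and 14.6% lower, and the Slc19a2 difference did not pass (-0.55, edgeR adjusted p = 0.117). Of the 9, Slc6a9 was higher in 2 libraries and lower in 2 (adjusted p = 0.0309), and Slc7a5 was higher in 3 of 4. Activated cells were higher than Foxp3 cells for 8 and lower for 1, beside 58.1% of genes called, 28.6% higher and 29.5% lower. The lower one was Slc2a3 (-1.14, adjusted p = 1.65e-04), and Slc2a1 did not pass (0.24, adjusted p = 0.119). Foxp3 cells with 0 or 1 activation UMI held Tfrc at 104, 90.2, 25.0 and 59.3 CPM without TMM factors. Resting cells held it at 117 to 138 CPM with TMM scaling. Slc38a2 stood at 277, 224, 87.5 and 209 CPM in these Foxp3 cells and at 154 to 199.8 CPM in resting cells. The values of the female library labelled wild type came from 14 cells.

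The relation to Myc was read within activated cells that had no Foxp3 UMI. Each library's cells were ranked by Myc UMIs after thinning to 2000, and ties by the share of Myc in all UMIs of the cell. The ranked cells were split into 3 equal groups, and the highest was compared with the lowest. In the order given, 1426, 1684, 407 and 1111 cells had 0 Myc UMIs after thinning. The lowest groups held 987, 1090, 313 and 744 cells, so the rule for ties chose them. Of the transporters 6 were higher in the Myc-high group, beside 38.6% of 9493 genes called and 20.2% higher, and 1 was lower, beside 18.4% lower. Slc7a1 stood at 479, 498, 528 and 481 CPM in the Myc-high group and at 335, 358, 389 and 361 CPM in the Myc-low group (log2 difference 0.46, edgeR adjusted p = 6.55e-15). Slc7a5 stood at 239, 195, 249 and 209 CPM against 175, 137, 190.3 and 173 CPM (0.41, adjusted p = 3.93e-10). Both were separated without overlap. Tfrc was higher by 0.39, Slc1a5 by 0.35, Slc38a2 by 0.29 and Slc3a2 by 0.18, and Slc6a9 was lower (-0.26, adjusted p = 0.0181). The Slc6a9 call was lost with DESeq2, with thinned counts (-0.38), without the replicate block, with a split at the Myc median (-0.16), and without the male library labelled knockout (-0.23) or the male library labelled wild type (-0.26). The differences of Slc2a1 (0.13), Slc2a3 (0.02) and Slc19a2 (-0.18) did not pass.

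Cells rich in Myc were also more activated, with means of 17.8 to 19.8 activation UMIs of 2000 in the highest group against 9.34 to 10.4 in the lowest. An added comparison, chosen after this was seen, formed the groups within bins of activation UMIs. This narrowed the gap without closing it, to 13.5 to 14.7 activation UMIs in the Myc-high groups against 12.6 to 13.7 in the Myc-low groups, the Myc-high group being higher in all 4 libraries. The Myc-high groups were also deeper, with medians of 5583.5 to 10627 UMIs against 4990 to 9849, and the part of both gaps in the differences was not tested. In it 4 transporters remained higher and 0 were lower, beside 30% of 9571 genes called, 15.9% higher and 14.1% lower: Slc1a5 (0.37), Tfrc (0.31), Slc7a1 (0.25) and Slc7a5 (0.23). Slc3a2 (0.07, edgeR adjusted p = 0.0512), Slc38a2 (0.08, adjusted p = 0.0662) and Slc6a9 (-0.05, adjusted p = 0.687) did not pass. In activated against resting cells Myc itself differed by 2.72 on the log2 scale.

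Between the genotype labels, 1 transporter was lower and 0 higher over all T cells in the libraries labelled knockout, beside 2.18% of 12781 genes called, 0.837% lower and 1.35% higher. The libraries labelled knockout held Slc6a9 at 19.6 ± 0.07 CPM (SD, n = 2) and the libraries labelled wild type at 24.8 ± 0.02 CPM. These levels came from 679, 951, 389 and 1107 UMIs in the order given. SDs this small are below the counting error of such UMI counts, so with n = 2 they do not measure reproducibility, here or in the classes below. The log2 difference was -0.34 (SE 0.093, edgeR adjusted p = 0.0349), the same to 2 decimals in females and in males. It was the one member at an unadjusted p under 0.05, and DESeq2 called 0 in either direction. Foxp3 cells, which this comparison includes, made up 4.79% and 5.52% of T cells in the libraries labelled knockout and 2.34% and 3.62% in those labelled wild type, and their part in the differences was not tested. The Slc6a9 call was lost in 6 settings, DESeq2 included, among them scaling to library totals (-0.27, adjusted p = 0.197) and thinning every cell to 2000 UMIs (-0.31, adjusted p = 0.516). The libraries labelled wild type also had the deeper cells.

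Over 10 transporters in 4 classes, the libraries of the 2 labels did not overlap in 14 of 40 cases, 11 with the knockout label below and 3 above. Over all genes the same held in 35.2% of cases, so these separations are near the background. That share counts both directions, and the share in each direction was not taken over all genes. The classes of 1 library share its preparation, so the cases of 1 gene are not independent. Both libraries labelled knockout held less Slc6a9 than both labelled wild type in resting cells (11.2 ± 0.363 against 16.3 ± 0.200 CPM), in intermediate cells (24.6 ± 0.0598 against 27.2 ± 0.0899 CPM) and in activated cells (24.0 ± 0.319 against 31.8 ± 0.147 CPM). In Foxp3 cells the order was the opposite, at 23.6 and 18.3 CPM against 14.4 and 12.9 CPM, from 43, 49, 5 and 20 UMIs. Tfrc was separated in the same way in resting (118 ± 1.53 against 134 ± 4.80 CPM), intermediate (255 ± 11.2 against 287 ± 15.3 CPM) and activated cells (366 ± 7.57 against 391 ± 6.73 CPM), but overlapped in Foxp3 cells, and its difference over all T cells did not pass (-0.12, adjusted p = 0.803). The 9 transporters other than Slc6a9 differed by -0.14 to 0.03 between the labels, and none passed. The haemoglobin gene Hbb-bs stood at 8.60 CPM over T cells of the female library labelled wild type and at 0.316 to 0.583 CPM in the others. The part of such red-cell transcripts in the label differences was not tested.

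The activated-to-resting difference did not pass the test of a change with genotype label for any transporter. One gene of 10911, or 0.00917%, was called in that test with edgeR, and 425 had an unadjusted p under 0.05. Slc38a2 was the one transporter at an unadjusted p under 0.05 (-0.18, SE 0.076, adjusted p = 1.00), and DESeq2 called 0 in either direction. Cells at 4 or more activation UMIs, here with activated Foxp3 cells included, made up 51.4% ± 1.58 of T cells with the knockout label and 52.1% ± 1.91 of T cells with the wild-type label (two-sided exact permutation p = 0.667, n = 2 each), a design in which p cannot go below 0.33. The difference of -0.71 percentage points became 0.41 without the female library labelled knockout and 0.64 without the female library labelled wild type.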

How the data were processed

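Single-cell RNA was counted in 4 libraries of stimulated splenic CD4 T cells. The deposited files hold raw UMI counts of each gene for all barcodes, with no normalization. Cell Ranger 6.0.2 and the build mm10 are named in the submitters' processing notes. Cells with at least 2000 UMIs, at least 500 genes and at most 10% mitochondrial UMIs were kept, and doublets were left in except in an alternative that removed the highest scrublet scores. Scrublet's own threshold marked 0.0486% to 2.05% of cells, too few in 1 library to be relied on, so the alternative removed 0.8% per 1000 cells. Classes, thinning, lineage filters and the transporters, lists and tests were chosen with earlier results of these data known.

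Counts were summed per library and class, because cells are not replicates, and tested in edgeR 4.0.16 (R 4.3.3) by its quasi-likelihood test after filterByExpr and TMM scaling, with Benjamini-Hochberg adjustment over all genes tested at 0.05. Library was a term within libraries and sex a term for genotype. Standard errors were taken as the log2 difference over the square root of F. The classes of 1 library share its cells' preparation. Replicate numbers follow accession order and here run parallel to sex, so that genotypes were paired only through the sex term. Named genes were the 10 transporters, Irf5, Myc, the 3 highest and 3 lowest called genes of each list, and the 2 genes most like each transporter. Ddit3, with 2 identifiers, was left out. On data simulated with 200 changed genes, the activated-to-resting step recovered 75% of log2 changes of 0.5 (10797 genes) and 95.5% of changes of 1 (10800 genes). The Foxp3 step recovered 28.5% (8982 genes) and 66.5% (8972 genes), the Myc step 62% and 91% (9398 genes), the genotype step 54% (12549 genes) and 74% (12536 genes), and the interaction 26% and 69% (10801 genes), so changes of these sizes can be missed there. DESeq2 1.42.0, no filter, library totals, thinned counts, other class cuts, other lineages kept, no replicate block, no sex term and each library left out were alternatives. Coordinates are from GENCODE M21 (GRCm38), promoters from RefSeq (GRCm38.p6). Python 3.11.15, numpy 2.4.6, scipy 1.17.1 and scanpy 1.11.5 did the rest.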

Additional observations from a re-analysis of the deposited data

Results flagged for a closer look

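Of 40 groups of 4 libraries checked (10 transporters in 4 classes), 3 held a library far from the other 3, where chance alone gives about 1 in 20. Slc7a5 in resting cells was low in the male library labelled knockout, at 59.9 CPM. Slc3a2 in activated cells was low in the female library labelled knockout, at 555 CPM. Slc38a2 in resting cells was high in the female library labelled knockout, at 199.8 CPM.

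For 3 transporters the log2 difference between the libraries labelled knockout and wild type had opposite signs in the sexes, with 1 library against 1, so that the difference between the sexes was not tested. Slc2a3 differed by 0.10 in females and -0.30 in males. Slc7a1 differed by -0.16 in females and 0.02 in males. Slc19a2 differed by -0.27 in females and 0.13 in males.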

How the results depend on the processing

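No called result reversed its direction under any alternative run. Some values that no test called did: without 1 library the activated share by genotype ranged from -2.06 to 0.64 percentage points, and the genotype differences of Slc2a3, Slc7a1 and Slc19a2 took either sign (-0.30 to 0.10, -0.16 to 0.02 and -0.27 to 0.13). In activated against resting cells every alternative gave 8 transporters higher and 0 lower, except stricter class cuts, which added Slc19a2, and the number of genes called without 1 library in turn ranged from 8016 to 8534 (8582 with all). Activated Foxp3 cells: 2295 genes called, 1092 with thinned counts and 1400 to 2430 without 1 library (1400 without the male library labelled knockout); transporters higher went from 1 to 0 with thinned counts, where Slc2a3 was not tested, and with stricter cuts. Myc groups: 3669 genes called, 1838 with DESeq2, 1795 with thinned counts, 2248 without the replicate block, 2893 to 3462 without 1 library; transporters lower went from 1 to 0 with DESeq2, thinned counts, no replicate block, a split at the Myc median and groups formed within activation bins, and ranged from 0 to 1 without 1 library. Genotype: 279 genes called, 48 with DESeq2, 147 with no filter, 120 with thinned counts, 155 with other lineages kept and 12 with no sex term; transporters lower went from 1 to 0 in these and with library totals. Interaction: 1 gene called, 44 with no filter, 3 with library totals, 6 with thinned counts, 6 with other lineages kept, 0 with doublets removed, 4 with stricter cuts and 1 to 17 without 1 library. The cause of these changes was not tested. Without the replicate block no other call on a transporter count changed.

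Library totals moved the median of all genes to -0.21 in activated cells and to 0.16 in activated Foxp3 cells, and the share of called genes that were higher from 48.4% to 38.4% and from 53.4% to 79.3%; for Myc it moved from 52.4% to 38.9% and for genotype from 61.6% to 78.0%. Leaving out 1 library in the genotype comparison leaves no residual degrees of freedom, so those are values with no test. Few UMIs limit Slc2a3 and Slc19a2, above all in Foxp3 cells.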
